A study of Mus musculus with 48 samples.

Results

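The 9 genes described here are 8 CC chemokine ligands and 1 CC chemokine receptor: Ccl2, Ccl7, Ccl12, Ccl3, Ccl4, Ccl5, Ccl6, Ccl9 and Ccr1. They were taken by name from a table of read counts for 55357 genes in the mouse dentate gyrus, and all 9 had enough counts to be tested. The study follows the intrahippocampal kainate model of mesial temporal lobe epilepsy over the latent period before spontaneous seizures. Adult wild-type C57Bl6/J mice, 6 to 8 weeks old by the sample records and somewhat older by the study's methods, received kainate, a glutamate receptor agonist that induces status epilepticus, or saline into the hippocampus of 1 side. The dorsal dentate gyrus was dissected from both sides of each mouse at day 3, 7 or 14. The injected side is the epileptogenic zone (EZ) and the opposite side the peri-ictal zone (PIZ), which received neither injection. Each of the 6 combinations of treatment and day held 4 mice, both sexes being represented, so that 24 mice gave 48 libraries in 12 groups of 4. Per the study's methods, a motor seizure was seen in every kainate mouse soon after the injection. Kainate and saline mice alike were injected in the EZ, so both carry the effect of the needle there.

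Chemokines are small secreted proteins that direct the movement of leukocytes and glia through G-protein-coupled receptors. CC chemokines are named for a pair of adjacent cysteines near the start of the mature protein. Ccl2, Ccl7 and Ccl12 are monocyte chemoattractant proteins that act mainly through Ccr2 on monocytes. Ccl3, Ccl4 and Ccl5 attract macrophages and T cells, and Ccl3 and Ccl5 act in part through Ccr1. Ccl6 and Ccl9 are rodent ligands of Ccr1. After seizures and brain injury, microglia, astrocytes and infiltrating myeloid cells are known sources of these ligands.

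The 8 ligands lie on chromosome 11 in 2 clusters, which were separated by 1422.1 kb in GRCm39, the build of the count table. Ccl2 (ENSMUSG00000035385.6, chr11:81926397-81928279), Ccl7 (ENSMUSG00000035373.3, chr11:81936532-81938351) and Ccl12 (ENSMUSG00000035352.4, chr11:81992645-81994466) formed the first cluster, all on the plus strand. The second cluster held, on the minus strand, Ccl5 (ENSMUSG00000035042.3, chr11:83416602-83425942), Ccl9 (ENSMUSG00000019122.9, chr11:83463745-83473161), Ccl6 (ENSMUSG00000018927.4, chr11:83478708-83483913) and Ccl3 (ENSMUSG00000000982.6, chr11:83538670-83540191), and on the plus strand Ccl4 (ENSMUSG00000018930.4, chr11:83553383-83555509). Ccr1 (ENSMUSG00000025804.6) lay on the minus strand at chr9:123762161-123768734. No exon of these genes overlapped one of another gene on the same strand. Close relatives within a cluster can share reads, and a read that aligned to several places was counted once at its primary alignment, so the split between related ligands carries that uncertainty.

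RefSeq promoters (GRCm38.p6) were at hand for 5 of the 9 genes, Ccl12, Ccl3, Ccl9, Ccl6 and Ccr1. The 250 bases before the annotated start are shown for 1 ligand of each of these 3 groups, as an example of the sequence next to genes that were all called in the EZ at day 3 and day 7. Capitals mark matches, on either strand, to the NF-kB consensus, the AP-1 motif TGANTCA, the PU.1 core GAGGAA and the TATA box TATAAA. Ccl12 was read at chr11:82101595-82101844 on the plus strand, Ccl3 at chr11:83649379-83649628 and Ccl9 at chr11:83578637-83578886, both on the minus strand.
Ccl12: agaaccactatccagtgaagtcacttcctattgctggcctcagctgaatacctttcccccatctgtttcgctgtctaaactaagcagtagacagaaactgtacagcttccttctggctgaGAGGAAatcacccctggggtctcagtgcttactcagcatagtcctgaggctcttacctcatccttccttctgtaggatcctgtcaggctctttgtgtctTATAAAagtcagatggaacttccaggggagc
Ccl3: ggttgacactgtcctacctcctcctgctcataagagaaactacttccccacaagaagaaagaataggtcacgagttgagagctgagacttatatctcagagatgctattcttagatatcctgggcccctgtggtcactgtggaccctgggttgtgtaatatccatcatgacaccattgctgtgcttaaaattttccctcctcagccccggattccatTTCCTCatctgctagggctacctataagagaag
Ccl9: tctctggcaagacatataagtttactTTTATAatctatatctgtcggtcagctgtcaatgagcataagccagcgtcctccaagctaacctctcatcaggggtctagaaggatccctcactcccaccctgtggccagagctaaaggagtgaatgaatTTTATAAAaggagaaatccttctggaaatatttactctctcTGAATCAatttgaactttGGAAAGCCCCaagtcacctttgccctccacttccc
Counted from the start, the Ccl12 window held a TATA box at -31 to -26 and a PU.1 core at -130 to -125. The Ccl3 window held a PU.1 core on the opposite strand at -33 to -28. The Ccl9 window held an NF-kB match at -35 to -26, an AP-1 match at -53 to -47 and TATAAA at -92 to -87, overlapping a match on the other strand, with 1 more match on the other strand at -224 to -219. Across the 5 windows, the NF-kB consensus matched in 2 (Ccl9 and Ccr1), AP-1 in 1, the PU.1 core in 3 and TATAAA in 2, and the Ccl6 window held none of them. Of all 32851 RefSeq promoter windows of this length, 9.55% held the NF-kB consensus, 6.75% AP-1, 23.3% the PU.1 core and 12.4% TATAAA. These matches are descriptions of letters and not of binding.

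Library totals were 17762656 to 25712975 counts, and 21390 genes passed the filter for low counts. A gene was called a DEG when edgeR's quasi-likelihood test gave it an adjusted p below 0.01 and a change of more than 1.5 times. The tissue label fits its markers in that the granule cell genes Prox1 and C1ql2 averaged 247 and 131 CPM (counts scaled to a common library size) over the 48 libraries. One EZ library, from kainate mouse 27 at day 14, stood apart from the other 3 of its group, and results that rest on it are given with and without it. Counts are listed below in a fixed order of mice. At day 3 the kainate mice are 38, 30, 44 and 42 and the saline mice 29, 37, 18 and 41. At day 7 the kainate mice are 23, 26, 21 and 35 and the saline mice 89, 33, 20 and 34. At day 14 they are kainate mice 27, 36, 14 and 40 and saline mice 24, 28, 39 and 31.

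In saline mice the Ccr1 ligands Ccl6 and Ccl9 carried most of the reads of the 8 ligands. In the EZ their mean shares of summed ligand CPM were 33.8% and 44.7% at day 3, and in the PIZ 36.7% and 48.3% at day 3 and 29.1% and 55.4% at day 14. Per kilobase of exon, Ccl6 had the highest level of the 9 genes in 5 of the 6 saline groups, and Ccl9 in the PIZ at day 14. Per length, Ccl6 reached 1.31 ± 0.169 CPM per kb (SD, n = 4) in the EZ of saline mice at day 7, against 1.04 ± 0.25 for Ccl9, 0.98 ± 0.706 for Ccl12 and 0.0427 ± 0.0525 for Ccl7. The ranges of Ccl6, Ccl9 and Ccl12 in that group overlap within 1 SD, so their order is not resolved.

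Several of these genes were close to the limit of detection without kainate. Ccl7, a monocyte chemoattractant, had 0 to 6 counts in every saline library. Ccl2 had 0 to 5 counts in 23 of 24 saline libraries, the exception being the EZ of mouse 29 at day 3 with 31 counts. Ccl5 had 0 to 9 counts in saline libraries. In the same libraries Ccl6 had 23 to 111 counts and Ccl9 37 to 137.

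All 9 genes were called higher in the EZ of kainate mice than of saline mice at day 3 and again at day 7, and at both days all 4 kainate libraries lay above all 4 saline libraries for each gene. Among all tested genes, 16.1% were called higher in kainate at day 3 and 20.6% at day 7. Complete separation of the libraries in that direction was seen for 23.9% of tested genes at day 3 and 23.7% at day 7. Over the 9 genes the median log2 fold change was 3.67 (day 3) and 4.47 (day 7), while over all genes tested it was 0.0323 and 0.0109. The 9 genes were chosen with earlier results of these data known, so these contrasts with all genes are descriptions. In bulk tissue, more cells that express a gene and more RNA in each cell cannot be told apart.

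**Figure D1:**
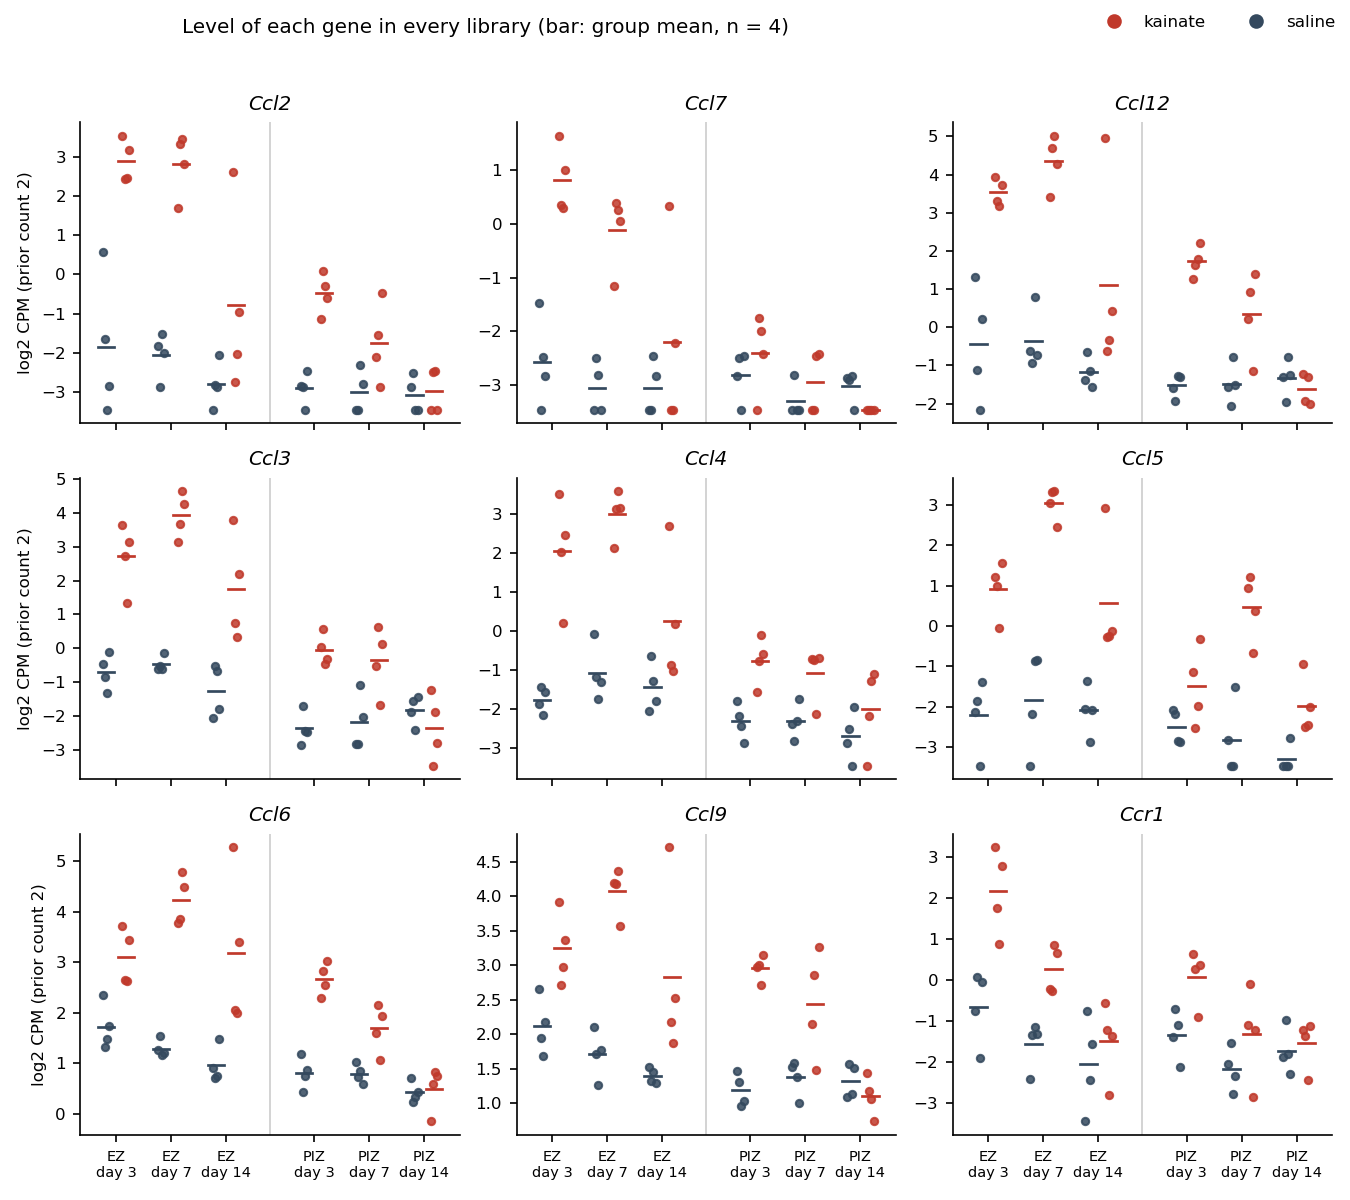
Level of each of the 9 genes in every library, as log2 CPM with a prior count of 2, by region and day (points: libraries, bars: group means, n = 4 mice). In the EZ all kainate points lie above all saline points at day 3 and day 7 for every gene, and at day 14 mouse 27 is the highest kainate point for every gene.

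Of the 9 genes, Ccl2 had the largest log2 fold change at day 7. Ccl2, the main ligand of Ccr2, had 303, 139, 129 and 247 counts in the EZ of kainate mice at day 3, and 31, 5, 0 and 1 in saline mice. At day 7 the counts were 62, 255, 280 and 169 with kainate and 4, 1, 5 and 3 with saline. The log2 fold change was 4.19 ± 0.78 (SE, 4 mice against 4, adjusted p = 4.17e-05) at day 3 and 5.58 ± 0.90 (adjusted p = 2.59e-06) at day 7. The EZ library of saline mouse 29 was the only saline library with more than 5 Ccl2 counts. It still lay below every kainate EZ library of day 3 and day 7.

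Ccl7, its neighbour in the cluster, was the scarcest ligand. It had 79, 31, 27 and 53 counts with kainate at day 3 against 6, 0, 2 and 1 with saline. At day 7 the values were 7, 31, 28 and 23 against 0, 2, 1 and 0. All kainate libraries were thus above all saline libraries, and the log2 fold changes were 4.07 ± 0.77 (adjusted p = 6.05e-05) and 4.47 ± 0.96 (adjusted p = 0.000173). Since the saline group at day 7 held only 3 counts in all, the ratio of normalized counts had an exact 95% interval of 8.62 to 129.0, which covers counting error only.

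Ccl12, a mouse ligand of Ccr2, had the highest level per length of all 9 genes in the EZ of kainate mice, 14.7 ± 3.71 CPM per kb on day 3 and 27.5 ± 11.6 on day 7 (SD, n = 4). Its counts at day 3 were 398, 255, 211 and 366 with kainate and 54, 8, 3 and 22 with saline. At day 7 they were 208, 665, 828 and 466 against 12, 10, 32 and 10. The groups did not overlap at either day, and the log2 fold change was 3.55 ± 0.76 (adjusted p = 0.000223) at day 3 and 4.82 ± 0.80 (adjusted p = 4.4e-06) at day 7.

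Among the macrophage inflammatory proteins and Ccl5, Ccl3 and Ccl4 changed strongly at both days and Ccl5 had its higher level at day 7. Ccl3, macrophage inflammatory protein 1 alpha, had 325, 172, 58 and 243 counts with kainate at day 3 against 14, 10, 7 and 17 with saline, and 170, 327, 629 and 456 at day 7 against 12, 14, 11 and 16. The corresponding log2 fold changes were 3.76 ± 0.60 (adjusted p = 4.42e-06) and 4.66 ± 0.60 (adjusted p = 7.18e-08), the latter with the smallest adjusted p of the 9 genes on that day. Kainate mouse 44 was the lowest of its group, yet still more than 3 times the highest saline count.

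Ccl4, macrophage inflammatory protein 1 beta, had 295, 104, 25 and 150 counts with kainate at day 3 and 4, 6, 3 and 5 with saline. At day 7 the counts were 84, 220, 303 and 213 against 18, 8, 4 and 6. At day 3 its log2 fold change of 4.68 ± 0.72 (adjusted p = 3e-06) was the largest of the 9 genes, and at day 7 it was 4.27 ± 0.66 (adjusted p = 1.37e-06).

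Ccl5, which also attracts T cells, had 58, 50, 21 and 79 counts with kainate at day 3 and 3, 4, 0 and 6 with saline. At day 7 the counts were 162, 255, 256 and 130 with kainate and 0, 3, 9 and 9 with saline. The groups were separate at both days, with log2 fold changes of 3.67 ± 0.78 (adjusted p = 0.000199) and 5.01 ± 0.72 (adjusted p = 3.66e-07). Every kainate library at day 7 held more Ccl5 counts than any at day 3. In a comparison added after the data were seen, kainate EZ at day 7 against day 3, the log2 difference in Ccl5 level was 2.09 ± 0.56 with an adjusted p of 0.021, which did not reach the threshold of the call.

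Ccl6 and Ccl9, the ligands with the highest saline levels, showed the smallest fold changes of the ligands. Ccl6 had 343, 162, 145 and 298 counts with kainate at day 3 against 111, 52, 61 and 66 with saline, and 265, 369, 697 and 543 at day 7 against 49, 65, 42 and 43. This gave log2 fold changes of 1.44 ± 0.41 (adjusted p = 0.00415) and 3.03 ± 0.44 (adjusted p = 4.19e-07). The lowest kainate value at day 3 stood close above the highest saline value, whereas at day 7 the groups were far apart. The day 3 call was lost when mouse 38, 37, 42, 18 or 41 was left out, with an adjusted p for Ccl6 of 0.0131 to 0.0264.

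Ccl9 had 393, 170, 185 and 282 counts with kainate at day 3 against 137, 81, 71 and 91 with saline. At day 7 the counts were 356, 461, 523 and 284 against 89, 73, 45 and 65. The log2 fold change was 1.18 ± 0.38 at day 3, with an adjusted p of 0.00931 close to the threshold, and 2.39 ± 0.39 (adjusted p = 3.1e-06) at day 7. Without the filter for low counts, the day 3 adjusted p of Ccl9 was 0.0139 and the call was lost. It was also lost without mouse 38, 37, 42, 18 or 41, with an adjusted p of 0.0208 to 0.0674.

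Ccr1, the receptor shared by Ccl3, Ccl5, Ccl6 and Ccl9, was higher with kainate at day 3 than at day 7. The counts at day 3 were 247, 86, 42 and 190 with kainate against 11, 21, 4 and 18 with saline, and at day 7 they were 15, 19, 44 and 36 against 2, 7, 7 and 6. The log2 fold change was 3.09 ± 0.54 (adjusted p = 1.81e-05) at day 3 and 2.14 ± 0.63 (adjusted p = 0.00377) at day 7. The day 7 call was lost with limma-voom (adjusted p = 0.0148) and without mouse 89, 21 or 35 (adjusted p = 0.0132 to 0.0204). Between kainate EZ libraries, Ccr1 fell by 2.17 ± 0.50 on the log2 scale from day 3 to day 7 (adjusted p = 0.00677), the only 1 of the 9 genes called in this added comparison, against 1.52% of all tested genes called in either direction. That call was lost in a model of only these groups and when any of mice 38, 30, 42, 23, 26 or 35 was left out. Saline Ccr1 counts were also lower at day 7, and the change of the kainate effect between the days was -0.95 ± 0.86 (adjusted p = 0.724).

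At day 14 in the EZ, 6 of the 9 genes were called higher with kainate, against 2.32% of all tested genes, and all 6 calls were lost when kainate mouse 27 was left out. That library had the highest level of all 9 genes in its group. Ccl12 shows the pattern, with 685 counts in mouse 27, 10, 14 and 30 in the other kainate mice, and 6, 11, 8 and 5 in saline mice. With all mice the log2 fold change was 4.52 ± 0.86 (adjusted p = 0.00133), and without mouse 27 it was 1.23 (adjusted p = 1.0). Leaving out saline mouse 24, 39 or 31 left 2 calls, Ccl3 and Ccl6, and leaving out saline mouse 28 left 4.

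The other 5 called genes behaved alike, to differing degrees. Ccl2 had 135, 1, 3 and 10 counts with kainate and 0, 1, 1 and 3 with saline. The log2 fold change of 4.70 ± 1.10 (adjusted p = 0.00641) became 1.79 (adjusted p = 1.0) without mouse 27, and apart from that mouse the groups overlapped. Ccl3 had 304, 28, 23 and 108 counts against 3, 12, 12 and 4, so that all 4 kainate libraries lay above all saline libraries. This was a log2 fold change of 3.80 ± 0.63 (adjusted p = 0.000605) with all mice and of 2.70 (adjusted p = 0.0292) without mouse 27. For Ccl5 the counts were 167, 13, 15 and 20 against 3, 6, 1 and 3, with a log2 fold change of 3.93 ± 0.78 (adjusted p = 0.00171), or 2.26 (adjusted p = 0.384) without mouse 27.

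Ccl6 had 853, 72, 77 and 253 counts with kainate at day 14 against 36, 31, 35 and 55 with saline. The change was 2.91 ± 0.44 on the log2 scale (adjusted p = 0.00026), and 1.71 (adjusted p = 0.0114) without mouse 27, the smallest adjusted p that remained. Ccl9 had 575, 79, 71 and 136 counts against 56, 48, 59 and 48, and its log2 fold change of 1.96 ± 0.39 (adjusted p = 0.00191) became 0.84 (adjusted p = 0.555). The Ccr1 ligands were therefore above saline in all 4 kainate libraries, though by less than in mouse 27 in the other 3.

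The remaining genes did not pass at day 14. Ccl4 had 141, 8, 8 and 25 counts against 3, 11, 7 and 4 (log2 fold change 2.77 ± 0.70, adjusted p = 0.0121), and it was called without kainate mouse 36, 14 or 40, with an adjusted p of 0.00271 to 0.00628. Ccl7 had 26, 0, 0 and 3 counts against 0, 0, 2 and 1 (3.04 ± 1.08, adjusted p = 0.103). Ccr1 had 13, 6, 1 and 7 counts against 0, 10, 2 and 5 (0.62 ± 0.76, adjusted p = 0.706), so its groups overlapped throughout. Complete separation in CPM was seen for 5 of the 9 genes (Ccl12, Ccl3, Ccl5, Ccl6 and Ccl9), against 4.58% of all tested genes. For Ccl12 it was narrow, with 0.562 CPM in kainate mouse 36 against 0.55 in saline mouse 28, and the raw counts overlapped. With only the 8 compared libraries in the model, or with limma-voom and its quality weights, none of the 9 was called (0 of 9 in both), while 8 had an unadjusted p under 0.05 with edgeR on all libraries and DESeq2 called 7.

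**Figure D2:**
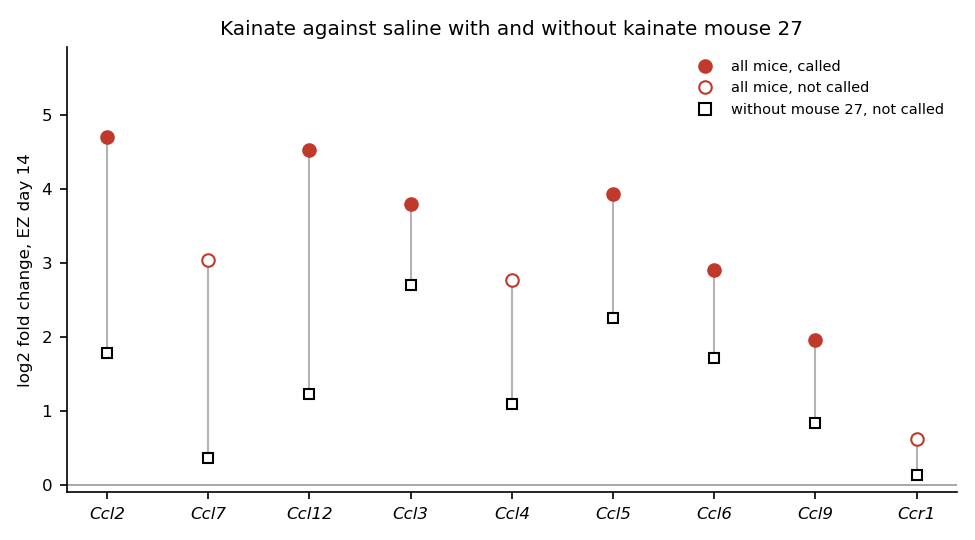
Log2 fold change of kainate against saline in the EZ at day 14 with all mice (circles, filled where called) and without kainate mouse 27 (open squares, none called). All 9 values move toward 0 without that mouse, Ccl12 from 4.52 to 1.23 and Ccl6 from 2.91 to 1.71.

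In the PIZ, the side that was not injected, 4 of the 9 genes were called higher with kainate at day 3, against 7.12% of all tested genes. Ccl12 had 57, 74, 84 and 96 counts with kainate and 5, 4, 7 and 7 with saline, a log2 fold change of 3.62 ± 0.91 (adjusted p = 0.00348). Ccl3 had 23, 34, 16 and 15 counts against 1, 5, 2 and 2 (2.95 ± 0.83, adjusted p = 0.00831). Neither pair of groups overlapped, and the Ccl12 change was close in size to the 3.55 seen in the EZ.

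Ccl6 and Ccl9 were the other 2 called genes of the PIZ at day 3. Ccl6 had 120, 171, 144 and 168 counts with kainate against 45, 29, 34 and 38 with saline (1.92 ± 0.44, adjusted p = 0.00143). Ccl9 had 193, 195, 162 and 184 counts against 55, 55, 40 and 43 (1.80 ± 0.39, adjusted p = 0.000964). These 2 genes stayed called when any single mouse was left out. The Ccl12 call was lost without mouse 37, 42 or 41 (adjusted p = 0.0107 to 0.0142). That of Ccl3 was lost without any 1 mouse other than 44 (adjusted p = 0.0119 to 0.0315), so that the lowest count of calls was 2.

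The 5 other genes of the PIZ at day 3 did not pass the test. Ccl2 had 9, 24, 18 and 12 counts with kainate against 1, 1, 0 and 2 with saline (3.69 ± 1.25, adjusted p = 0.0281). As its saline group was at the floor of 3 counts or fewer in every library, the ratio of 63 to 4 counts gives 14.4 with an exact 95% interval of 5.36 to 54.6 for counting error. Ccl2 was called by limma-voom and when the other groups were left out of the model (5 genes called by each), and at an adjusted p under 0.05 both Ccl2 and Ccr1 were (6 genes). Ccl4 (2.17 ± 0.91, adjusted p = 0.0788) had 6, 12, 21 and 12 counts against 4, 3, 2 and 1. These genes were low, but Ccl2 and Ccl4 joined the 4 called genes in having every kainate library above every saline library, which held for 6 of the 9 genes against 17.1% of all tested genes. Ccr1 had 36, 27, 11 and 25 counts against 6, 12, 8 and 3 (1.64 ± 0.61, adjusted p = 0.0454). Ccl5 (1.74 ± 1.02, adjusted p = 0.217) and Ccl7 (0.94 ± 1.14, adjusted p = 0.592) were at 15 counts or fewer in every library.

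At day 7 in the PIZ edgeR called none of the 9 genes (0 of 9), against 0.15% of all tested genes, with 5 at an unadjusted p under 0.05. Ccl5 came closest, with 39, 54, 12 and 25 counts with kainate and 1, 0, 0 and 5 with saline, so the groups were separate, and a log2 fold change of 4.14 ± 0.91 (adjusted p = 0.014). DESeq2 called Ccl5, limma-voom called Ccl5, Ccl12 and Ccl9, and edgeR called Ccl5 without mouse 21 (adjusted p = 0.00842). Ccl12 had 23, 43, 8 and 53 counts against 5, 3, 9 and 5 (2.32 ± 0.97, adjusted p = 0.245). Kainate mouse 21 was the lowest of its group for 8 of the 9 genes in the PIZ, and the highest for 8 of the 9 in the EZ. Complete separation was seen for Ccl5 and Ccl6, 2 of 9, against 7.63% of all tested genes.

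At day 14 in the PIZ none of the 9 was called (0 of 9) by edgeR, DESeq2 or limma-voom, against 0.00935% of all tested genes, and 1 had an unadjusted p under 0.05. Ccl7 was at 0 counts in all 4 kainate libraries and at 1, 1, 1 and 0 in saline libraries. Only Ccl5 separated, with 9, 2, 2 and 3 counts against 0, 0, 0 and 1, where complete separation was seen for 3.7% of all tested genes. The ratio of these 16 to 1 counts was 15.8, with a counting interval of 2.46 to 665.0. The kainate and saline ranges of Ccl6 (17 to 37 and 23 to 34 counts) and Ccl9 (30 to 55 and 43 to 69 counts) overlapped.

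**Figure D3:**
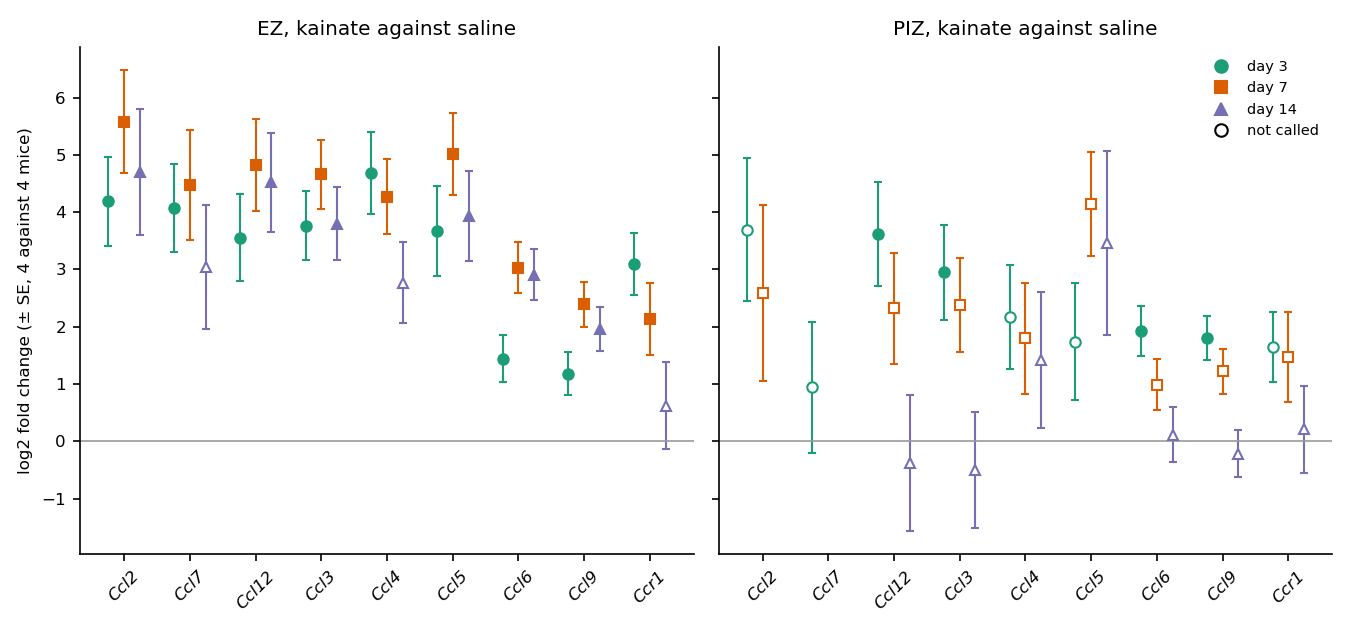
Log2 fold change of kainate against saline for each gene by day in the EZ (left) and PIZ (right), with SE from the edgeR fit (filled symbols: called, open symbols: not called). Genes that never exceeded 3 counts in either group are left out. In the EZ all symbols of day 3 and day 7 are filled, and in the PIZ only those of Ccl12, Ccl3, Ccl6 and Ccl9 at day 3.

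The size of the kainate effect was then compared between regions directly. None of the 9 genes was called (0 of 9) at any day by edgeR, where 0.0655% of all tested genes were called at day 3, 9.89% at day 7 and 0% at day 14. Of the 9, 0, 2 and 5 had an unadjusted p under 0.05 at the 3 days. The nearest was Ccl6 at day 7, whose effect was larger in the EZ by 2.04 ± 0.62 on the log2 scale (adjusted p = 0.0142). DESeq2, a model of only the compared groups and edgeR without mouse 26 (adjusted p = 0.0079) called Ccl6 at day 7, and limma-voom called Ccl6, Ccl7 and Ccl12 at day 7 and Ccl7 at day 3. With the mouse as a block, since both sides came from the same animals, the count was again 0 at each day. At day 3 the median difference of the 9 genes was 0.811 (0.0115 over all tested genes), with none past the threshold. It was above 0 for 6 of them, from 0.50 for Ccl2 to 3.13 for Ccl7, and below 0 for Ccl12 (-0.07), Ccl6 (-0.48 ± 0.60) and Ccl9 (-0.63 ± 0.54). No SE is given for Ccl2, Ccl7 and Ccl12, because its formula is unreliable for differences near 0 or counts near the floor.

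Within kainate mice, the levels were higher in the EZ than in the PIZ of the same mouse for most genes. Mean Ccl2 CPM was 11.9 times higher in the EZ at day 3 and 29.3 times at day 7, in 4 of 4 mice at both days. Mean Ccl12 was 3.55 times higher at day 3 and 15.3 times at day 7, also in 4 of 4 mice. At day 3 the ratios were smallest for Ccl6 (1.41) and Ccl9 (1.27), each in 3 of 4 mice. At day 14 the Ccr1 ratio was 1.16, in 2 of 4 mice, or 0.898 without mouse 27, in 1 of 3. That of Ccl9 was 4.75, in 4 of 4 mice, or 2.38 without mouse 27, in 3 of 3. They are descriptions, and the same sides are compared in saline mice next.

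In saline mice the EZ was not called different from the PIZ for any of the 9 genes (0 of 9 at each day by edgeR, DESeq2 and limma-voom), with 4, 1 and 0 at an unadjusted p under 0.05 at day 3, 7 and 14. Over all tested genes 0.0281%, 0% and 0% were called. Ccl6 was higher in the EZ in all 12 saline mice, by 0.98 ± 0.44 on the log2 scale at day 3 (adjusted p = 0.759). Ccl4 was higher in 11 of 12 and Ccl3 in 10 of 12. Over the 9 genes the median log2 difference was 0.976, 1.43 and 0.587 by day, and over all genes -0.00811, -0.0039 and 0.00987. With the mouse as a block the count remained 0. Saline EZ at day 3 against day 14 also gave 0 of 9 by the same tools, with 2 at an unadjusted p under 0.05, where 0% of all tested genes were called.

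Change over time was tested as the difference of the kainate effect between successive days. No gene of the 9 was called from day 3 to day 7 in the EZ (0 of 9 by edgeR, against 0.145% of tested genes) or the PIZ (0 of 9, against 0.0234%), with 2 and 0 at an unadjusted p under 0.05. From day 7 to day 14 the counts were again 0 of 9 in the EZ (against 0.271%) and the PIZ (against 0%), with 0 and 2 at an unadjusted p under 0.05. In the EZ the day 7 to day 14 result depended on mouse 27, in that Ccl12 (-3.59), Ccl4 (-3.18) and Ccl9 (-1.55 on the log2 scale) were called without it. DESeq2 gave 0 in all 4 of these comparisons. Limma-voom, which weights libraries by quality, called 7 of the 9 from day 7 to day 14 in the EZ and Ccl6 from day 3 to day 7.

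Levels of kainate EZ libraries at day 14 and day 7 were compared in a further addition made after the data were seen. Ccl2 (fell by 2.18 ± 0.67 on the log2 scale, adjusted p = 0.00972), Ccl3 (fell by 1.62 ± 0.49, adjusted p = 0.00895) and Ccl4 (fell by 2.00 ± 0.56, adjusted p = 0.00472) were called lower at day 14, 3 of 9 against 17.2% of all tested genes in either direction. Without mouse 27 all 9 genes were called lower at day 14, and without mouse 21, 35, 36, 14 or 40 none was. DESeq2 called only Ccl4.

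Summed over the 8 ligands, the EZ of saline mice held 5.29 to 16.2 CPM and that of kainate mice 33.7 to 83.9 CPM at day 3 and 67.0 to 139.0 at day 7. At day 14 the sum was 131.0 CPM in mouse 27 and 11.9, 10.6 and 24.4 in mice 36, 14 and 40, all above the saline range of 5.29 to 6.05 at that day. In the PIZ of kainate mice the sum was at least 16.9 CPM at day 3, 6.11 to 19.2 at day 7 and 3.89 to 4.67 at day 14, and saline mice held 3.92 to 5.59 CPM over the 3 days. The makeup of the sum also differed. In the EZ at day 3 Ccl2 took 14.3% with kainate and 3.03% with saline, and Ccl12 22.3% and 8.1%, while Ccl9 took 18.3% and 44.7%. In kainate mice Ccl5 took 3.62% of the EZ sum at day 3 and 8.78% at day 7, and 1.6% and 10.9% of the PIZ sum. These shares are means of 4 libraries and were not tested.

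**Figure D4:**
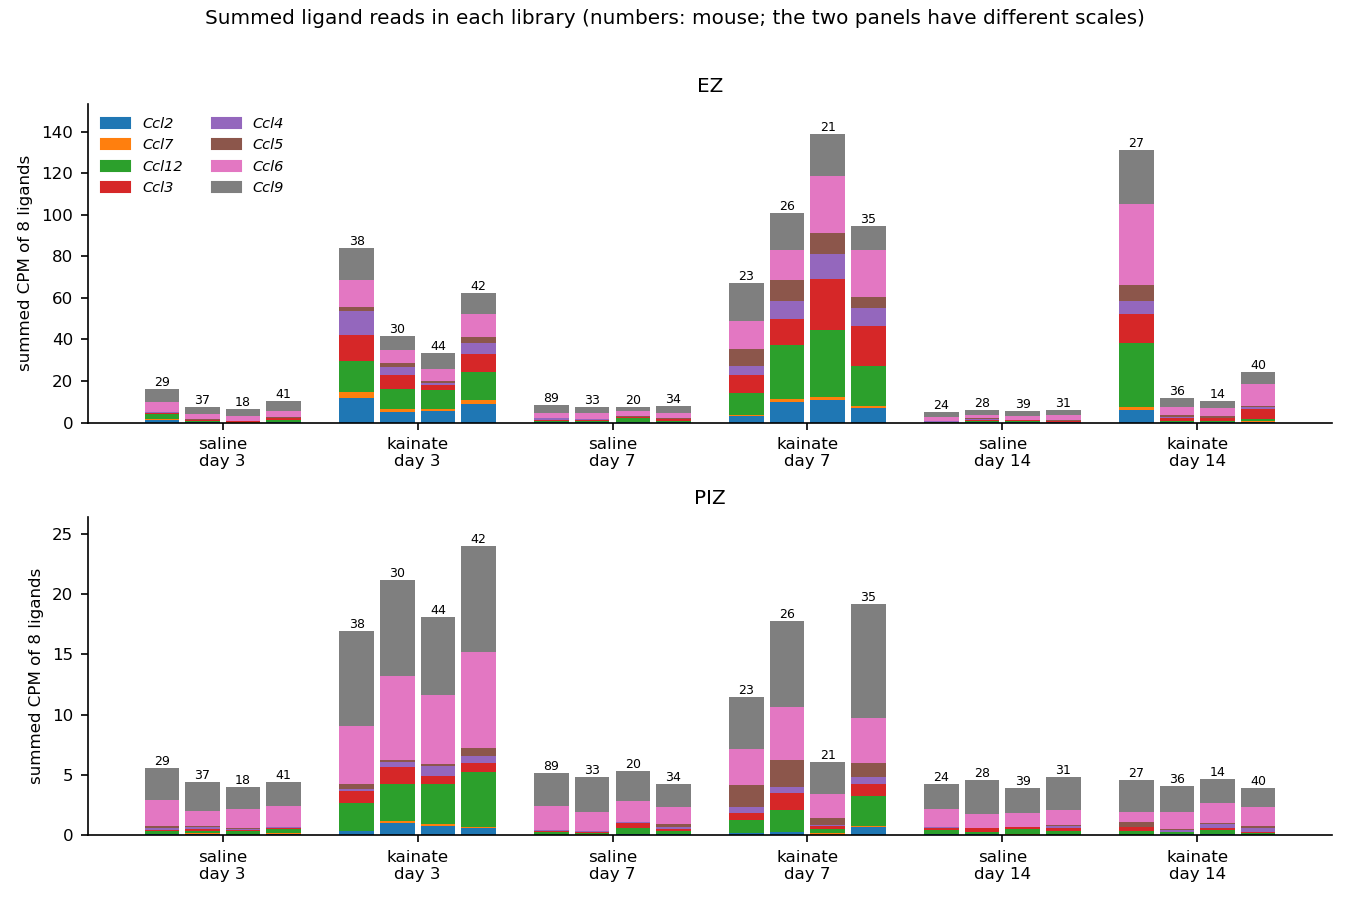
Summed CPM of the 8 ligands in each library, stacked by ligand, for the EZ (top) and PIZ (bottom) on different linear scales, with mouse numbers above the bars. At day 14 the EZ bar of kainate mouse 27 reaches 131.0 CPM and those of the other 3 kainate mice 10.6 to 24.4.

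Markers of cell types that could carry these genes moved in the same comparisons, and their part in the results was not tested. All 8 of 8 microglia markers were called higher with kainate in the EZ at day 7 and the PIZ at day 3, and 4 of 8 in the EZ at day 3. In the EZ at day 14 edgeR called 4 of 8 microglia and 2 of 5 astrocyte markers higher, and 0 of 8 and 0 of 5 without mouse 27. Over all tested genes, the shares called higher were 16.1%, 20.6% and 2.32% in the EZ at day 3, 7 and 14. In the PIZ they were 7.12%, 0.15% and 0.00935%. The same shares apply to the marker lists below. Csf1r, among the most abundant, averaged 221 CPM over all libraries. The summed level of the microglia list was 525 to 851 CPM with saline and 1160 to 1880 with kainate in the EZ at day 3, and 445 to 483 and 1490 to 5070 at day 7. Of 6 monocyte markers, Vcan, Ccr2, Plac8 and Chil3 were called higher in the EZ at day 3 and at day 7, and 0 of 6 in the PIZ at any day. The most abundant were Vcan (38.2 CPM) and Ly6c2 (8.86 CPM), and Ly6c2 was not called at either day in the EZ (0.63 ± 0.24 and 0.57 ± 0.24, log2). The monocyte sum in the EZ at day 3 was 70.7 to 170.0 CPM with kainate and 35.5 to 45.3 with saline. In the PIZ at day 3 it was 55.8 to 61.3 CPM with kainate and 32.1 to 40.7 with saline, and at day 7 and day 14 the PIZ ranges overlapped. Ccr2, the receptor of Ccl2, Ccl7 and Ccl12 and a member of that list, rose in the EZ by 3.82 ± 0.46 (log2) at day 3 and 2.75 ± 0.47 at day 7.

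Other immune lists were sparse. Of 8 T and NK cell markers only Cd4 and Trbc2 had enough counts to be tested, at 0.329 and 0.244 CPM on average, and both were called higher in the EZ at day 7, at 4.01 ± 0.72 and 4.36 ± 0.85 (log2). Their list summed to 2.35 to 7.49 CPM with kainate and 0.261 to 0.459 with saline in that comparison, where Ccl5 was at its highest. Neutrophil markers, led by S100a9 (0.245 CPM) and S100a8 (0.192 CPM), gave 0 calls of 2 tested in every comparison, and the summed level in the EZ at day 3 was 1.15 to 5.08 CPM with kainate and 0.0883 to 1.32 with saline. Border macrophage markers (Mrc1 at 3.69 and F13a1 at 3.36 CPM) gave 2 of 5 calls in the EZ at day 3 and 3 of 5 at day 7.

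Astrocyte markers (Gfap at 1980 and Slc1a3 at 778 CPM on average) gave 3 of 5 calls in the EZ at day 3, 4 of 5 at day 7 and 3 of 5 in the PIZ at day 3, all upward. Granule cell markers were called lower for 3 of 5 in the EZ at day 3, 2 of 5 at day 7 and 2 of 5 in the PIZ at day 3, where 8.61%, 11.9% and 1.57% of all tested genes were called lower. That share was 0.0374% in the EZ at day 14, and 0.0514% and 0.00468% in the PIZ at day 7 and day 14. Endothelial markers (Flt1 at 70.1 and Cldn5 at 34.8 CPM) were called higher for 2 of 3 in the EZ at day 3 and day 7. Blood genes (Hbb-bs at 55.8 and Hba-a1 at 36.8 CPM) gave 0 calls of 4 in all 6 comparisons, and of the choroid plexus markers (Kl at 17.0 and Ttr at 0.836 CPM) only Kl was called, lower in the EZ at day 3 and day 7. In kainate mouse 27 at day 14, the microglia sum was 2620 CPM against 503 to 684 in the other 3 kainate mice, the astrocyte sum 8270 against 1940 to 2700, the T and NK cell sum 7.30 against 0.794 to 1.71, and the granule cell sum 360 against 442 to 824.

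NF-kB is a transcription factor known to drive several CC chemokine genes, and 9 genes of its pathway, feedback genes among them, were listed. Their RNA levels do not measure its activity, and a link to the chemokine genes was not tested. Of these, 6 of 9 were called higher with kainate in the EZ at day 3, 7 of 9 at day 7 and 3 of 9 at day 14, and 2, 0 and 0 of 9 in the PIZ at the same days. Over all tested genes the shares called higher were 16.1%, 20.6% and 2.32% in the EZ and 7.12%, 0.15% and 0.00935% in the PIZ. Their median log2 fold change was 1.17, 1.29 and 0.69 in the EZ, below that of the 9 chemokine genes in each case. Without mouse 27, a refit of the lists chosen after the data were seen, none of the 9 was called by edgeR in the EZ at day 14 (0 of 9), and the median was 0.31. The most abundant were Tnip1 (18.1 CPM), not called in any comparison, and Nfkbia (17.4 CPM), which rose by 0.70 ± 0.21 in the EZ at day 3 and 1.29 ± 0.21 at day 7 on the log2 scale. In the EZ of mouse 27 at day 14 the list summed to 132 CPM, and to 54.6 to 62.4 in the other kainate mice and 53.5 to 57.4 in saline mice.

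The rest of the CC family was mostly scarce. Of 13 further ligands 9 could be tested, and 2 were called higher in the EZ at day 3 (Ccl8 and Ccl19) and 4 at day 7 (Ccl8, Ccl11, Ccl19 and Ccl22), against 16.1% and 20.6% of all tested genes. Ccl8, another monocyte chemoattractant, was also the only 1 called in the PIZ at day 3, against 7.12% of all tested genes. Its log2 fold change was 2.53 ± 0.80 in the EZ at day 3 and 4.49 ± 0.93 at day 7, and 3.40 ± 0.90 in the PIZ at day 3, from at most 59 counts in a library. The 2 most abundant further ligands, Ccl27a (18.6 CPM) and Ccl25 (9.64 CPM), showed no rise. Ccl27a was called lower in the EZ at day 7 (fell by 0.65 ± 0.18 on the log2 scale). Ccl26 had 0 counts in all libraries, and Ccl1 and Ccl20 at most 1.

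Of 9 further receptors 4 could be tested. Of these, 3 were called higher in the EZ at day 3 and 3 at day 7, among them Ccr2 and Ccr7 at both days. In the PIZ 1 was called higher at day 3. Over all tested genes the shares called higher were 16.1%, 20.6% and 7.12%. Ccr7 rose in the EZ by 2.57 ± 0.75 at day 3 and 4.24 ± 0.81 at day 7 (log2). Ccr4 and Ccr8 had at most 1 and 2 counts in a library. Of the atypical receptors, which bind chemokines without classical signaling, Ackr1 was the most abundant (29.7 CPM), Ccrl2 was called higher (2.36 ± 0.38) and Ackr2 lower (-1.85 ± 0.54) in the EZ at day 7.

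The 9 genes varied together across the 48 libraries, which share the treatment groups, so the following Pearson correlations of log2 CPM are descriptions. Among the ligands r ran from 0.667 (Ccl7 with Ccl5) to 0.956 (Ccl2 with Ccl12). Between Ccr1 and the ligands r ran from 0.582 with Ccl5 to 0.76 with Ccl2, a range that overlapped the lower end of that among the ligands. The genes most like Ccl6 over the 48 libraries were Trem2 (r = 0.962) and Tyrobp (0.961), and those most like Ccl9 were Ctss (0.951) and B2m (0.95). For Ccl2 they were Lcp1 (0.961) and Tgif1 (0.958), for Ccl12 Irgm1 (0.971) and Fcgr1 (0.969), and for Ccl3 Tlr2 (0.954) and Plek (0.948). For Ccl4 they were Itpripl2 and Tgif1 (both 0.94), for Ccl7 Spp1 (0.939) and Dab2 (0.929), and for Ccl5 Gm43302 (0.921) and H2-T9 (0.918). Ccr1 stood apart, as its nearest genes were Tpx2 (0.879) and Cdca3 (0.878), genes of the cell division cycle.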

How the data were processed

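RNA sequencing counts from 48 dorsal dentate gyrus libraries were analyzed, 1 EZ and 1 PIZ library from each of 24 mice. Per the authors, fastp 0.20.1 trimmed the reads, which were aligned to GRCm39 with HISAT2 2.2.1 and counted by strand on Gencode genes with featureCounts of Subread 1.6.4. The deposited values are raw read counts without normalization, and a read with several alignments was counted at the primary one.

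Counts were analyzed in R 4.3.3 with edgeR 4.0.16 (filterByExpr, TMM, 1 mean for each of 12 groups, quasi-likelihood test, adjustment over all 21390 tested genes). Exon positions and lengths came from Gencode on GRCm39. SE is the absolute log2 fold change divided by the square root of F. It is approximate, and unreliable for differences near 0 or groups near the floor. For the Ccl5 effect in EZ minus PIZ at day 14, for example, it came to 143.42. CPM used TMM-scaled totals, and log2 CPM a prior count of 2. A group with 3 counts or fewer in every library was at the floor. The code was tested on simulated data. Totals were 17762656 to 25712975 counts.

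The labels give groups and mouse numbers. Libraries with the same number come from the same animal, and their residuals correlated between -0.189 and 0.617. The mouse entered as a block only in an alternative test of the regions. The estimates, SE and adjusted p printed for comparisons of regions come from the fit without that block. Sex by sample was not used. Alternatives were DESeq2 1.42.0, limma-voom (limma 3.58.1) with quality weights, RLE size factors, no filter, only the compared groups, an adjusted p under 0.05, a prior count of 0.5, and each mouse left out. Comparisons between days within kainate EZ libraries were added after the data were seen. The members and gene lists were chosen with earlier results of these data known. All 9 members are named, other CC family genes that were called or have the most counts, the 2 most abundant genes of each marker list, and the 2 genes best correlated with each member. Further genes at single counts are named because of those counts. A few genes selected in this way are not reported here.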

Additional observations from a re-analysis of the deposited data

Results flagged for a closer look

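In 108 sets of 4 libraries (9 genes in 12 groups), 6 single libraries stood apart from the other 3 of their group on the log2 CPM scale, with a gap to the nearest library, as a share of the group's range, above the 95% critical value of Dixon's test for 4 values. Chance flags about 1 in 20 such sets. Ccl5 in the EZ of kainate mouse 27 at day 14 had 167 counts, and the gap was 0.946 of the range. Ccr1 in the EZ of saline mouse 89 at day 7 had 2 counts against 6 or 7 in the others (0.857). Ccl4 in the PIZ of kainate mouse 21 at day 7 had 3 counts against 11 or 12 (0.956). The other 3 were at 0 or 1 count: Ccl7 in the PIZ of saline mouse 33 at day 7 (1 count, 1.0), Ccl7 in the PIZ of saline mouse 31 at day 14 (0 counts, 0.876) and Ccl5 in the PIZ of saline mouse 31 at day 14 (1 count, 1.0).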

How the results depend on the processing

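All 28 calls of kainate against saline kept their direction under every alternative, and all 28 were kept with DESeq2, RLE size factors and an adjusted p under 0.05. Limma-voom kept 21, the model of only the compared groups 22, and the test without a filter 26. In the EZ, the number called at day 14 was 6, with limma-voom 0 and with only the compared groups 0, and with each mouse left out 0 to 7. In those reruns it was 0 without mouse 27, 2 without mouse 24, 39 or 31 and 4 without mouse 28. At day 3 and day 7 leaving out a mouse gave 7 to 9 and 8 to 9. In the PIZ leaving out a mouse gave 2 to 4 at day 3, where the main 4 became 5 with limma-voom, 5 with only the compared groups, 6 with an adjusted p under 0.05 and 3 without a filter. It gave 0 to 1 at day 7, where the main 0 became 1 with an adjusted p under 0.05, 1 with DESeq2 and 3 with limma-voom. The effect in EZ minus PIZ went from 0 to 1 at day 3 with limma-voom. At day 7 it went from 0 to 1 with an adjusted p under 0.05, DESeq2 and only the compared groups, 3 with limma-voom, and 0 to 1 with a mouse left out. The replicate block of mouse changed no call in comparisons of regions (0 called in each). The change of effect in the EZ went from 0 to 1 (day 3 to day 7) and to 7 (day 7 to day 14) with limma-voom, and the latter ranged from 0 to 3 with a mouse left out. For kainate EZ at day 7 against day 3, the 1 call became 2 with an adjusted p under 0.05, 4 with limma-voom and 0 with only the compared groups, and 0 to 1 with a mouse left out. For day 14 against day 7, the 3 calls became 5, 9 and 0 under the same alternatives, 1 with DESeq2, 1 without a filter, and 0 to 9 with a mouse left out. The causes were not tested. A prior count of 0.5 moved 24 of 108 group means of log2 CPM by over 1 SD, most of them saline groups at a few counts. At 3 counts or fewer, a level cannot be told from 0 at this depth.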

Other observations

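Within the EZ of kainate mice, single mice led most of the 9 genes at once. Mouse 38 had the highest level of 8 of 9 genes at day 3 and mouse 44 the lowest of 7. Mouse 21 had the highest level of 8 of 9 at day 7 and mouse 23 the lowest of 6. At day 14 mouse 27 was the highest for 9 of 9 in the EZ, and in its PIZ it alone was the highest for 4 and the lowest for 2. In the PIZ of mouse 27 the ligand sum was 4.54 CPM, against 3.89 to 4.67 in the other kainate mice at that day.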
